A study of Mus musculus with 12 samples.

Results

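The 35 genes described here are 18 genes of glycolysis and 17 other genes of the hypoxia response, chosen by symbol, and 34 of them were measured among the 24246 genes tested on these arrays. The organoids came from the colon of C57BL/6 mice, 3 Vdr knockout (labelled VDR KO) and 3 wild type, and each mouse gave a culture with calcitriol and one with vehicle. Calcitriol, 1,25(OH)2D3, is the hormone form of vitamin D and the ligand of the receptor that Vdr encodes. The 4 groups of 3 arrays were knockout organoids with 100 nM calcitriol, knockout organoids with ethanol vehicle, wild-type organoids with 100 nM calcitriol and wild-type organoids with ethanol vehicle. All cultures were crypt-derived, enriched in stem cells and grown in Matrigel, and calcitriol was renewed every 48 h with the medium. The labels give the time of treatment as 62 h in the sample descriptions and 72 h in the design text. Mice numbered 1 and 3 of each genotype were labelled 2 months old and those numbered 2 were labelled 3 months old, and the labels do not give the knockout allele.

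Cells sense oxygen through prolyl hydroxylases of the EGLN family, which mark the HIF alpha subunits for destruction while oxygen is present. When oxygen is short, HIF1A or EPAS1 joins ARNT, binds hypoxia response elements and raises genes for glucose uptake, glycolysis, acid export, mitophagy, collagen modification and vessel growth. In the colon the epithelium borders a lumen almost free of oxygen.

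The level of a gene is given in log2 units of the processed intensity of its brightest probe, with the 75th percentile of each array at 0, so a level of one gene cannot be set against that of another. Between 55.0% and 72.8% of spots were well above background on an array, and no spot was saturated. Wild-type vehicle replicate 2 stood apart, with the 72.8% (the next was 66.4%) and a median signal of 89.9 (the next was 56.9). In the 3 comparisons of treatment or genotype that use it no gene of the 34 passed with or without it. It also enters the comparisons of replicate numbers and of slides described below, in which genes did pass. Vdr lay between -0.43 and 0.37 on the 6 knockout arrays and between 0.82 and 2.01 on the 6 wild-type arrays, without overlap. All 15 markers of colon epithelium were above background on all 12 arrays, against 1 of 10 of fibroblasts and smooth muscle, 4 of 8 of immune cells and 2 of 5 of endothelium. The labels call the mice numbered 1 male and those numbered 2 and 3 female, but the Y-linked Ddx3y was at 0.56 to 0.75 on the arrays of number 2 and at -8.18 to -6.83 on all others, and Xist was low on those of number 2 alone, at -7.95 to -3.66. In all, 34 of the 35 genes passed the filter on dim probes. The exception was Mxi1, a repressor that opposes MYC, which was above background on 3 of 12 arrays, at levels of -6.94 to -4.43.

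HIF complexes recognise a core of ACGTG or GCGTG. The 250 bases before the RefSeq start (build GRCm38.p6) were searched for both on both strands. A promoter was found for 32 of the 35 genes, not for Epas1, Bnip3l and Ndrg1. Either core stood in 35 of 46 promoters of these genes (76.1%), against 38.6% of all 32851 promoters. Promoters of the same gene can overlap, as in Aldoa and Eno1, so that a core is counted more than once. CACGTG, which holds ACGTG on both strands, stood in 8.70% of the members' promoters and in 6.02% of all. The promoters of P4ha1, Car9, P4ha2 and Bnip3 are shown because these 4 hypoxia genes had the smallest p-values, among those with a core in the first promoter, between the mice numbered 1 and 2 described below. That of Ldha is shown as a glycolytic promoter with 5 core matches, among them both strands of 2 CACGTG, whose gene had a difference of 0.042 between those mice, below its standard error. A match is a description of the letters and not of binding. Capitals mark the cores, read 5′ to 3′ towards the start. The regions are chr10:59323046-59323295, plus strand for P4ha1, chr4:43506776-43507025, plus strand for Car9, chr11:54100674-54100923, plus strand for P4ha2, chr7:138909507-138909756, minus strand for Bnip3 and chr7:46845554-46845803, plus strand for Ldha.
P4ha1: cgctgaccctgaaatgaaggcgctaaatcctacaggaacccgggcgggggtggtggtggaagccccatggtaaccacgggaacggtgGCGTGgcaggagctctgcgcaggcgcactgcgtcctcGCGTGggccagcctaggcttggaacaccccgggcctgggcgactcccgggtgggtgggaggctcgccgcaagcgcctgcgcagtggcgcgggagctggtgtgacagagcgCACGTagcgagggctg
Car9: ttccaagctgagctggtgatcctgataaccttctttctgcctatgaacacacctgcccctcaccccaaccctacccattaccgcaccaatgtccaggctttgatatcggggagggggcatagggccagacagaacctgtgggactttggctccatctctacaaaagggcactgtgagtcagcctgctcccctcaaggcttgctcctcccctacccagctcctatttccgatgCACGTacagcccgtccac
P4ha2: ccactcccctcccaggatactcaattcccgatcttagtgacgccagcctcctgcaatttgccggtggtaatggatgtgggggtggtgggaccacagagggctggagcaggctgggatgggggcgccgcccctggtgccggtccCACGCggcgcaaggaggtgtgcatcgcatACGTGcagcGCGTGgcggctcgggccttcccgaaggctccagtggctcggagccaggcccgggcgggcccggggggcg
Bnip3: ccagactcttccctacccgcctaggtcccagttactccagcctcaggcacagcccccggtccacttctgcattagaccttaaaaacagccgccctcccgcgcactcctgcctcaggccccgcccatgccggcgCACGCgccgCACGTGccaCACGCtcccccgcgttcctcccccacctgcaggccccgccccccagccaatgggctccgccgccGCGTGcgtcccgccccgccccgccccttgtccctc
Ldha: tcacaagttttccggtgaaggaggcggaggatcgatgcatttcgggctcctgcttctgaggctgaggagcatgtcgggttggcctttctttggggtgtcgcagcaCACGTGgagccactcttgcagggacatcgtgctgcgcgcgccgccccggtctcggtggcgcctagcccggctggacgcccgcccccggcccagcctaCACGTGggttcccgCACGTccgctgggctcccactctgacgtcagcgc

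Of the oxygen-regulated subunits, Epas1 had the smallest spread within groups of all 34 genes. Values on the arrays are given for replicates 1, 2 and 3 in that order. Hif1a, the subunit behind most of the glycolytic response, was at 0.89, 1.09 and 1.41 in knockout organoids with calcitriol, 1.30, 1.64 and 1.52 in knockout organoids with vehicle, 1.07, 0.96 and 1.40 in wild-type organoids with calcitriol, and 1.57, 1.13 and 1.25 in wild-type organoids with vehicle. The groups overlapped. Epas1, the related subunit HIF-2 alpha, was at 3.02, 2.95 and 2.90 in knockout organoids with calcitriol, 2.88, 2.94 and 2.67 in knockout organoids with vehicle, 2.84, 3.01 and 2.89 in wild-type organoids with calcitriol, and 3.09, 2.94 and 3.14 in wild-type organoids with vehicle. Its brightest probe spanned 0.47 log2 units over all 12 arrays, and its 3 probes gave knockout over wild-type differences in vehicle of -0.23, 0.35 and 0.47.

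The oxygen sensor Egln3 and the secreted factors Vegfa and Adm were lower in the mice numbered 2 than in those numbered 1 in all 4 groups. Egln3, a prolyl hydroxylase that HIF itself induces, was at 5.64, 5.17 and 5.78 in knockout organoids with calcitriol, 5.92, 5.26 and 5.62 in knockout organoids with vehicle, 5.51, 5.25 and 4.99 in wild-type organoids with calcitriol, and 5.74, 4.97 and 5.17 in wild-type organoids with vehicle. In every group replicate 2 was below replicate 1. Vegfa, the growth factor of blood vessels, was at 3.88, 3.56 and 4.53 in knockout organoids with calcitriol, 4.24, 3.80 and 4.44 in knockout organoids with vehicle, 4.06, 3.83 and 3.94 in wild-type organoids with calcitriol, and 4.24, 3.48 and 3.71 in wild-type organoids with vehicle. Replicate 2 was the lowest of its group in all 4. Adm, the vasodilator adrenomedullin, was at 2.33, 0.96 and 2.65 in knockout organoids with calcitriol, 2.76, 0.84 and 2.25 in knockout organoids with vehicle, 1.64, 1.06 and 0.097 in wild-type organoids with calcitriol, and 2.06, 0.77 and 0.45 in wild-type organoids with vehicle. It had the widest range of the 34 genes, 2.66 log2 units, with replicate 3 high in knockout and low in wild type.

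Among the effectors, Car9, Bnip3, P4ha1 and P4ha2 were highest in the mice numbered 1 in all 4 groups. Car9, a surface enzyme that handles the acid of glycolysis, was at 6.00, 5.31 and 5.87 in knockout organoids with calcitriol, 6.10, 5.24 and 5.72 in knockout organoids with vehicle, 6.04, 5.65 and 5.62 in wild-type organoids with calcitriol, and 6.01, 5.24 and 5.67 in wild-type organoids with vehicle. Bnip3, which marks mitochondria for removal, was at 7.23, 6.38 and 7.03 in knockout organoids with calcitriol, 7.40, 6.51 and 6.75 in knockout organoids with vehicle, 7.20, 6.75 and 6.38 in wild-type organoids with calcitriol, and 7.48, 6.44 and 6.33 in wild-type organoids with vehicle. P4ha1, the catalytic subunit of a collagen prolyl hydroxylase, was at 0.93, -0.45 and 0.46 in knockout organoids with calcitriol, 0.87, -0.80 and 0.50 in knockout organoids with vehicle, 0.71, -0.41 and -0.15 in wild-type organoids with calcitriol, and 0.81, -0.85 and -0.082 in wild-type organoids with vehicle. Replicate 2 was the lowest of its group in all 4 groups for P4ha1 and in both knockout groups for Car9 and Bnip3.

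Of the glycolytic genes, Hk2, Pgam1 and Pfkfb4 each kept one order of mice in all 4 groups. Slc2a1, the glucose importer GLUT1, was at 5.29, 5.21 and 5.86 in knockout organoids with calcitriol, 5.43, 5.46 and 6.16 in knockout organoids with vehicle, 5.16, 5.17 and 5.42 in wild-type organoids with calcitriol, and 5.41, 5.27 and 5.43 in wild-type organoids with vehicle. Its highest arrays were both from knockout mouse 3. Hk2, the hexokinase that traps glucose, was at 3.53, 3.12 and 4.03 in knockout organoids with calcitriol, 3.71, 3.17 and 4.31 in knockout organoids with vehicle, 3.51, 3.26 and 3.86 in wild-type organoids with calcitriol, and 3.53, 3.00 and 3.56 in wild-type organoids with vehicle. Replicate 2 was lowest and replicate 3 highest in all 4 groups. Pgk1, an ATP-forming enzyme of the lower pathway, was at 8.82, 8.41 and 8.36 in knockout organoids with calcitriol, 8.55, 8.38 and 8.42 in knockout organoids with vehicle, 8.56, 8.46 and 8.21 in wild-type organoids with calcitriol, and 8.44, 8.20 and 8.26 in wild-type organoids with vehicle. Ldha, which turns pyruvate into lactate, was at 8.51, 8.19 and 7.66 in knockout organoids with calcitriol, 7.61, 7.78 and 8.34 in knockout organoids with vehicle, 8.08, 8.15 and 8.07 in wild-type organoids with calcitriol, and 7.62, 7.53 and 8.34 in wild-type organoids with vehicle. In neither Pgk1 nor Ldha did the groups separate.

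A further 14 genes are given by their range over the 12 arrays. Of the hypoxia genes, the mitophagy receptor Bnip3l spanned 4.95 to 5.68, the mitochondrial protein Higd1a 6.87 to 7.47 and the stress-responsive Ndrg1 6.06 to 7.12. The histone demethylase Kdm3a spanned 2.82 to 3.81 and Ankrd37 3.02 to 4.27. At the top of glycolysis the hexokinase Hk1 spanned 5.07 to 5.81, the isomerase Gpi1 7.37 to 8.43 and the phosphofructokinase subunit Pfkp 3.75 to 4.61. Further down, the aldolase Aldoa spanned 8.87 to 9.44, the triose phosphate isomerase Tpi1 7.36 to 7.76, the dehydrogenase Gapdh 8.35 to 9.04 and the mutase Pgam1 7.28 to 7.68. The lactate exporter Slc16a3 spanned 5.13 to 5.76 and the kinase Pdk1 2.62 to 3.55. Of these 14, Tpi1 and Pgam1 had the narrowest ranges, 0.41 and 0.40, and Ankrd37 the widest, 1.26.

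**Figure D1:**
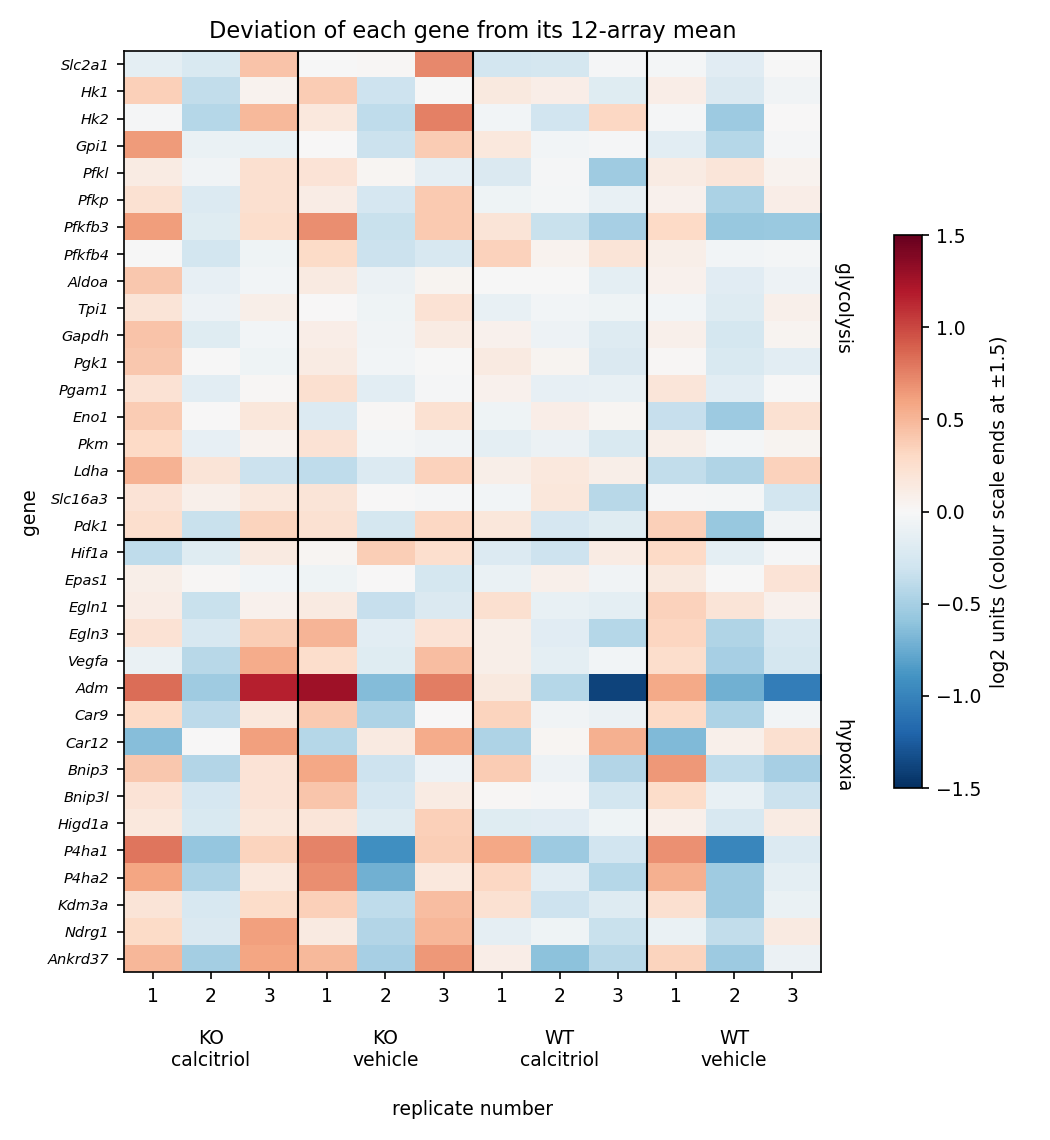
Each row is 1 of the 34 genes and each column 1 of the 12 arrays, grouped as knockout with calcitriol, knockout with vehicle, wild type with calcitriol and wild type with vehicle, and colour gives the deviation from the gene's mean over the arrays in log2 units. The replicate 2 columns are mostly blue in the hypoxia genes, with array medians of -0.42 to -0.15 over them, and the replicate 1 columns mostly red, with medians of 0.098 to 0.38.

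Within groups the hypoxia genes were the more variable. Their SD between arrays of a group, pooled over the 4 groups, had a median of 0.360 (0.104 for Epas1 to 0.885 for Adm), against 0.226 for the glycolytic genes. Genes in the same range of levels had a median SD of 0.216, which 13 of 16 hypoxia genes and 9 of 18 glycolytic genes exceeded.

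More of these genes passed a test between mice than between treatments or genotypes. The difference between mice was noticed in the data and then fitted on the same data, and so is given as a description. With both arrays of a mouse averaged and genotype in the fit of the 6 mice, 13 of 34 genes differed between the mice numbered 1 and those numbered 2 at an adjusted p under 0.05, against 12.7% of all genes. Of these, 12 were higher in replicate 1, against 6.23% of all genes, and 1 was lower, against 6.46%. All 13 differed in the same direction in each of the 4 groups, which their selection on these same arrays favours. The hypoxia genes had a median difference of 0.49 and the glycolytic genes one of 0.28, against -0.093 over all genes. In bulk RNA fewer cells of a type and less RNA per cell cannot be told apart.

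Both collagen prolyl hydroxylases were among them. P4ha1 ranged over 0.71 to 0.93 on the 4 arrays of replicate 1 and over -0.85 to -0.41 on those of replicate 2, a difference of 1.46 (SE 0.17, limma's adjusted p = 0.00622). P4ha2, its relative, ranged over 3.51 to 3.89 in replicate 1 and 2.48 to 3.04 in replicate 2, a difference of 1.00 (SE 0.16, limma's adjusted p = 0.0116). The arrays did not overlap in either gene. The mitophagy receptor Bnip3 differed by 0.81 (SE 0.15, limma's adjusted p = 0.0185) and Car9 by 0.68 (SE 0.10, limma's adjusted p = 0.0105). Ankrd37, an ankyrin repeat gene that HIF1 induces, differed by 0.89 (SE 0.18, limma's adjusted p = 0.0208). The histone demethylase Kdm3a differed by 0.62 and Egln3 by 0.54. Car12, a carbonic anhydrase like Car9, went the other way. It ranged over 1.77 to 2.01 in replicate 1 and 2.45 to 2.57 in replicate 2, a difference of -0.61 (SE 0.11, limma's adjusted p = 0.0154).

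Of the glycolytic genes 5 were higher in replicate 1. Pfkfb3, which makes the activator of phosphofructokinase, differed by 0.81 (SE 0.16, limma's adjusted p = 0.0186). Pdk1, which inhibits pyruvate dehydrogenase, differed by 0.61 (SE 0.13, limma's adjusted p = 0.026). The enzymes Gpi1, Pgam1 and Gapdh differed by 0.39, 0.32 and 0.31. The other Pfkfb3 probe gave 0.44. With the mean of all probes of a gene 11 genes passed, against 11.8% of all genes, and Pfkfb3 and Gapdh were not among them. Hif1a (0.0035), Epas1 (-0.0049), Ldha (0.042), Slc2a1 (0.046), Eno1 (0.051), Pfkl (0.029) and Slc16a3 (0.028) had differences below their standard errors. Adm had one of 1.29 with an adjusted p of 0.085 in limma's fit.

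**Figure D2:**
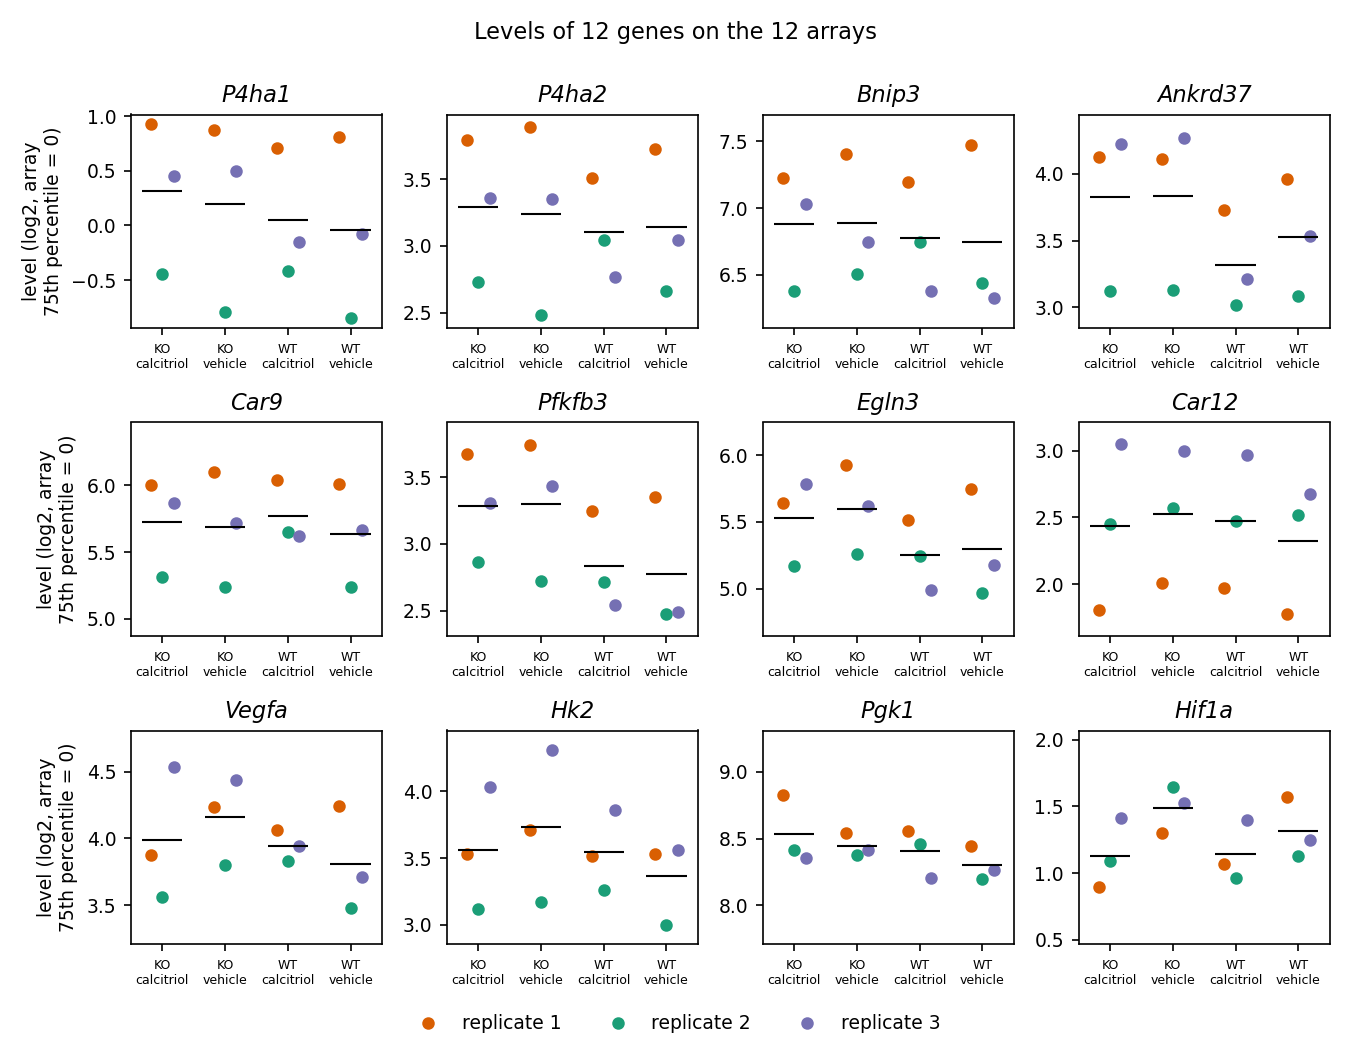
Each panel gives the level of 1 gene on the 12 arrays in log2 units, with the 75th percentile of the array at 0, points coloured by replicate number and lines at the group means. Replicate 1 lies above replicate 2 in all 4 groups for P4ha1, P4ha2, Bnip3, Ankrd37, Car9, Pfkfb3, Egln3, Vegfa, Hk2 and Pgk1 and below it for Car12, while Hif1a changes order.

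**Figure D3:**
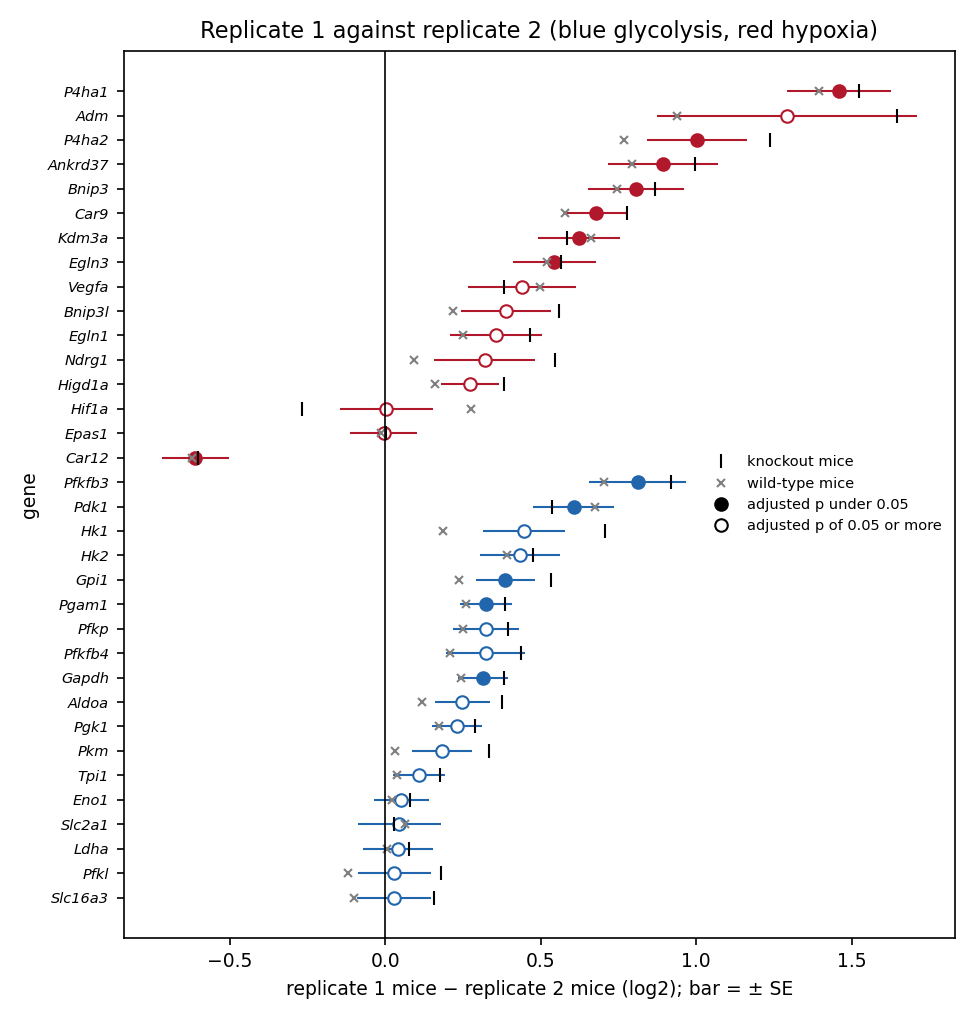
Points are differences, replicate 1 mice minus replicate 2 mice, in log2 units with bars of 1 SE, filled where the adjusted p was under 0.05. Ticks give the knockout mice and crosses the wild-type mice, and 13 of 34 points are filled, with P4ha1 the farthest right at 1.46.

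Fewer genes separated the other mice. Replicate 1 against replicate 3 gave 2 of 34, against 8.55% of all genes, with Bnip3 higher by 0.70 and Car12 lower at -1.03. Replicate 3 against replicate 2 gave Hk2 alone, at 0.80, against 1.19% of all genes. The 13 calls rested on few mice. Without the wild-type mouse numbered 1 none was left, against 0.932% of all genes, with a hypoxia median of 0.42. P4ha1 alone was left without the knockout mouse numbered 1 (2.12% of all genes, hypoxia median 0.65) and without the knockout mouse numbered 2 (4.26%, 0.36). Without the wild-type mouse numbered 2 there were 8, 6 of them among the 13, against 4.93% of all genes, with a hypoxia median of 0.66. The calls over all genes thus fell with those of these genes, while the hypoxia median was between 0.36 and 0.66. On calcitriol arrays alone there were 0, against 0.4% of all genes, with medians of 0.38 for hypoxia and 0.26 for glycolysis. On vehicle arrays alone there were 15, 11 of them among the 13, against 11.1% of all genes, with medians of 0.66 and 0.24. Replicates 1 and 2 of a group always shared a slide. Replicate 3 lay on another slide than these, except in wild-type organoids with calcitriol. Replicates 1 and 2 differed in mouse number, labelled age, labelled sex and the levels of Ddx3y and Xist, which cannot be told apart in that comparison. Replicates 1 and 3 had the same labelled age and like levels of Ddx3y and Xist. They did not have the same labelled sex or, outside wild type with calcitriol, the same slide. The part of any of these in the differences between mice was not tested. Summed colon epithelium markers were at 10.4 to 10.7 in replicate 1 and 10.5 to 10.8 in replicate 2. Of the 15, 2 passed as lower in replicate 1 and 0 as higher, against 6.46% and 6.23% of all genes. Their differences were above 0 in 3 of 15, against 41% of all genes. The median of the 15 was -0.20, against -0.093 over all genes. Summed immune markers were at 3.89 to 4.62 in replicate 1 and 3.46 to 4.15 in replicate 2. Fibroblast and smooth muscle markers, of which 2 were above background on no array, were at -1.32 to -0.92 in replicate 1 and -1.46 to -0.33 in replicate 2. Of the markers tested, Cd68 among 6 immune ones (0.86, limma's adjusted p = 0.0311) and Pdgfrb among 5 of fibroblasts and smooth muscle (1.33, limma's adjusted p = 0.0244) were higher in replicate 1, and 0 of either list were lower. Over all genes these shares were 6.23% higher and 6.46% lower. Endothelial markers, of which 1 was above background on no array, were at 1.58 to 2.99 in replicate 1 and 1.97 to 2.70 in replicate 2. The part of other cell types was not tested.

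Calcitriol against vehicle in wild-type organoids asked what the hormone did where its receptor was present. None of the 34 genes passed an adjusted p of 0.05, against 0.161% of all genes, and none did with the mouse as a replicate block, against 0.969%. The glycolytic genes had a median difference of 0.024 and the hypoxia genes one of -0.043, against -0.025 over all genes. At an unadjusted p under 0.05 there was 1, against 4.55% of all genes, and with the block 2, against 10.0%. The 1 was Pfkl, the liver-type subunit of phosphofructokinase. It was at 3.81, 4.002 and 3.50 with calcitriol and 4.15, 4.20 and 4.07 with vehicle, a difference of -0.37 (SE 0.15, limma's unadjusted p = 0.026, adjusted p = 1). The arrays did not overlap. Scaling to the array median shifts all genes of a comparison alike, here to a median of 0.44, and put Pfkl at 0.10, again below the median of all genes. Pkm, the pyruvate kinase that ends the pathway, was at 7.43, 7.49 and 7.35 with calcitriol and 7.67, 7.55 and 7.62 with vehicle, a difference of -0.19 (SE 0.12, limma's adjusted p = 1), also without overlap, and 0.28 against 0.44 over all genes with that scaling. Eno1, an enolase, was at 7.74, 7.89 and 7.83 with calcitriol and 7.45, 7.25 and 8.02 with vehicle. Its difference was 0.24, and that of Epas1 was -0.14, with overlap in both. With slide as a block Eno1 was at 0.012 and the hypoxia median at 0.13. Single arrays moved the hypoxia median, to -0.20 (1 of 16 above 0) without wild-type vehicle replicate 2 and 0.15 (10 of 16) without wild-type vehicle replicate 1, and the glycolysis median to -0.069 and 0.14 without the same arrays. The precision differed between genes, with 95% intervals of -0.39 to 0.11 for Epas1 and -1.48 to 1.16 for Adm.

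In knockout organoids calcitriol gave 0 of 34 genes at an adjusted p under 0.05, against 0% of all genes, and 0 with the replicate block, against 0%. At an unadjusted p under 0.05 there were 0, against 5.77% of all genes, and with the block 2, Slc2a1 and Hif1a, against 8.00%. The median differences were 0.013 for glycolysis and -0.010 for hypoxia genes, against 0.044 over all genes. The hypoxia median was -0.24 without knockout vehicle replicate 2 and 0.18 without knockout calcitriol replicate 2. Hif1a averaged 1.13 ± 0.26 with calcitriol and 1.49 ± 0.17 with vehicle (SD, n = 3 each), a difference of -0.36 (SE 0.18, limma's adjusted p = 0.841). It was lower with calcitriol in 3 of 3 mice. Slc2a1 averaged 5.45 ± 0.36 with calcitriol and 5.68 ± 0.41 with vehicle (SD, n = 3 each), a difference of -0.23 (SE 0.21, limma's adjusted p = 1), and was also lower in 3 of 3. Within the wild-type mice its calcitriol differences were below 0 too, at -0.25, -0.098 and -0.013. Eno1 was at 8.18, 7.81 and 7.97 with calcitriol and 7.59, 7.81 and 8.02 with vehicle. The differences of Eno1 and Epas1 were 0.18 and 0.13. With slide as a block Slc2a1 was at -0.79, Epas1 at 0.32, Eno1 at 0.081 and the hypoxia median at -0.27. Knockout vehicle replicates 1 and 2 were the only arrays on their slide. In that fit the knockout vehicle level thus rests on replicate 3 alone.

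The knockout was set against the wild type in vehicle to ask what the receptor did without added hormone. No gene of the 34 passed, against 0.00412% of all genes, and none with the replicate number as a block, against 0.0165%. At an unadjusted p under 0.05 there were 0, against 8.74% of all genes, and with the block 5, against 14.9%. The differences were above 0 in 16 of 18 glycolytic and 14 of 16 hypoxia genes, with medians of 0.12 and 0.17, while 41.3% of all genes were above 0 and their median was -0.062. After quantile normalization 9 of 18 glycolytic genes and 13 of 16 hypoxia genes were above 0, with medians of -0.0051 and 0.11. Without wild-type vehicle replicate 2, the array that stood apart, the medians were 0.016 for glycolysis and 0.060 for hypoxia genes, with 10 of 18 and 10 of 16 above 0. Without knockout vehicle replicate 1 there were 13 of 18 and 9 of 16, and without knockout vehicle replicate 3 the medians were 0.069 and 0.086. The hypoxia median was 0.35 without wild-type vehicle replicate 1 and 0.38 without knockout vehicle replicate 2. Pfkfb3 was at 3.74, 2.72 and 3.44 in knockout and 3.35, 2.47 and 2.49 in wild type, a difference of 0.53 (SE 0.32, limma's adjusted p = 0.667). Egln1, the main oxygen sensor, was at -0.41, -0.90 and -0.76 in knockout and -0.21, -0.36 and -0.48 in wild type, a difference of -0.34 (SE 0.19, limma's adjusted p = 0.636). Both overlapped. Epas1 differed by -0.23 and Slc2a1 by 0.31. With slide as a block Slc2a1 was at 0.96, Epas1 at -0.46, Pfkfb3 at 0.82 and the hypoxia median at 0.45. In that fit the knockout vehicle level again rests on replicate 3 alone.

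With calcitriol the comparison of genotypes again gave 0 of 34 genes, against 0.206% of all genes, and 0 with the block, against 1.03%. At an unadjusted p under 0.05 there was 1, against 3.00%, and with the block 6, against 7.76%. The 1 was Pfkl, at 4.15, 3.97 and 4.27 in knockout and 3.81, 4.002 and 3.50 in wild type, a difference of 0.36 (SE 0.15, limma's unadjusted p = 0.0307, adjusted p = 1). It uses the same wild-type arrays with calcitriol as the comparison above. Pkm was at 7.87, 7.46 and 7.64 in knockout and 7.43, 7.49 and 7.35 in wild type, a difference of 0.23. Pfkfb4, a relative of Pfkfb3, was at 0.35, 0.086 and 0.29 in knockout and 0.71, 0.42 and 0.55 in wild type, without overlap, a difference of -0.32 (SE 0.17, limma's adjusted p = 1). Adm had the largest difference of the 34 genes, 1.05 (SE 0.60, limma's adjusted p = 1). Its 95% interval was -0.27 to 2.37. The medians were 0.14 for glycolysis and 0.16 for hypoxia genes, with 16 of 18 and 12 of 16 above 0, against a median of 0.013 and 52.8% above 0 over all genes. After quantile normalization the glycolysis median was 0.035 with 10 of 18 above 0, and the hypoxia median 0.11 with 12 of 16. Without knockout calcitriol replicate 1 the glycolysis median was 0.050 with 10 of 18 above 0. Leaving out 1 array put the glycolysis median at 0.050 to 0.25 and the hypoxia median at 0.072 to 0.32, both highest without knockout calcitriol replicate 2.

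The difference between the calcitriol effects, knockout minus wild type, passed in 0 of 34 genes, against 0.0289% of all genes, and in 0 with the block, against 0.239%. At an unadjusted p under 0.05 there were 0, against 3.38%, and with the block 2, Hk2 and Pfkl, against 8.01%. Pfkl had an effect of 0.071 in knockout and -0.37 in wild type, a difference of 0.44 (SE 0.21, limma's unadjusted p = 0.0536, adjusted p = 1). Those of Epas1, Pkm and Egln1 were 0.27, 0.22 and 0.29. The 5 comparisons share arrays. The median differences of effects were -0.026 for glycolysis and 0.014 for hypoxia genes, against 0.068 over all genes. The hypoxia median was -0.22 without wild-type vehicle replicate 1 and 0.19 without knockout calcitriol replicate 2. Blocking on the slide, Epas1 was at 0.54, Pkm at 0.34, Egln1 at 0.18 and the hypoxia median at -0.34. There too the knockout vehicle level rests on replicate 3 alone.

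**Figure D4:**
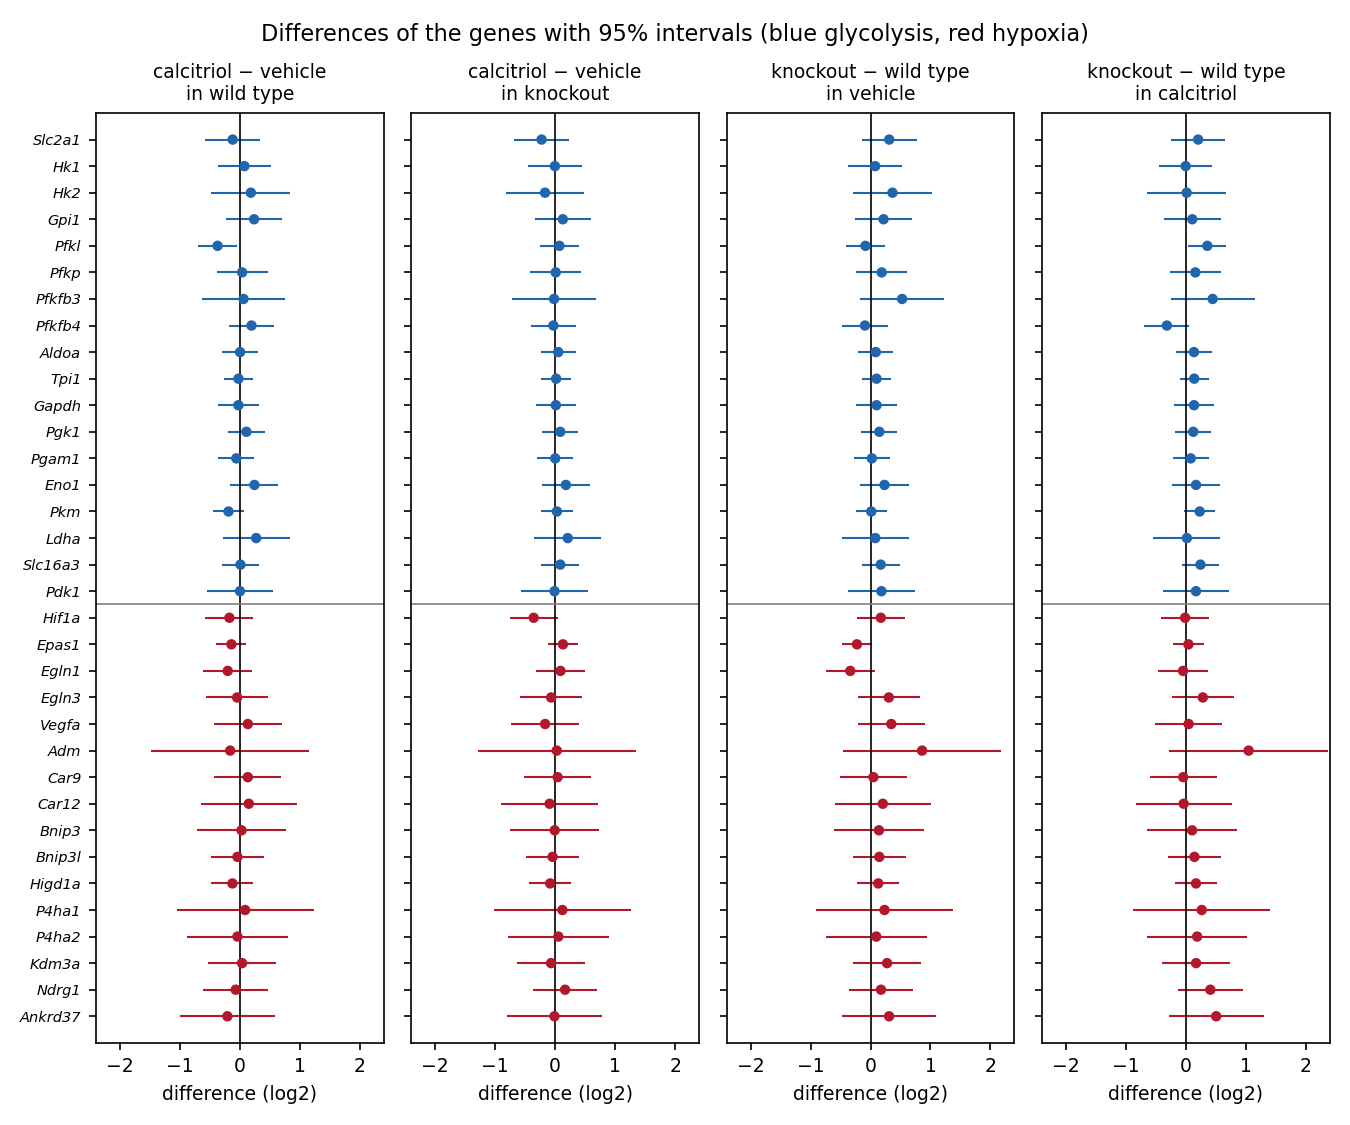
The 4 panels give the difference of each of the 34 genes in log2 units with its 95% interval, glycolysis in blue and hypoxia in red. The intervals of Pfkl lie below 0 for calcitriol in wild type, at -0.69 to -0.053, and above 0 for knockout against wild type in calcitriol, at 0.039 to 0.68, and all others in the panels include 0.

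The brightest probes of Ldha and Gpi1 differed between slides, as did a larger share of all genes than of these. Of the 12 arrays, 7 lay on 1 slide, among them 5 of the 6 with calcitriol. In a fit of group, replicate number and slide, also chosen after the data were seen, 2 of 34 genes differed between that slide and the others, against 8.50% of all genes. Ldha ranged over 8.07 to 8.51 on that slide and 7.53 to 7.78 on the others, a difference of 0.70 (SE 0.083, limma's adjusted p = 0.00115), and Gpi1 differed by 0.40 (adjusted p = 0.0323). The calcitriol differences of Ldha were 0.21 in knockout and 0.27 in wild type, and with slide as a block they were 0.024 and -0.21. The knockout vehicle level with that block rests on replicate 3 alone. In plain differences of means between the slides, without that fit, the brightest Ldha probe gave 0.60 and its other probes 0.042 and -0.058.

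**Figure D5:**
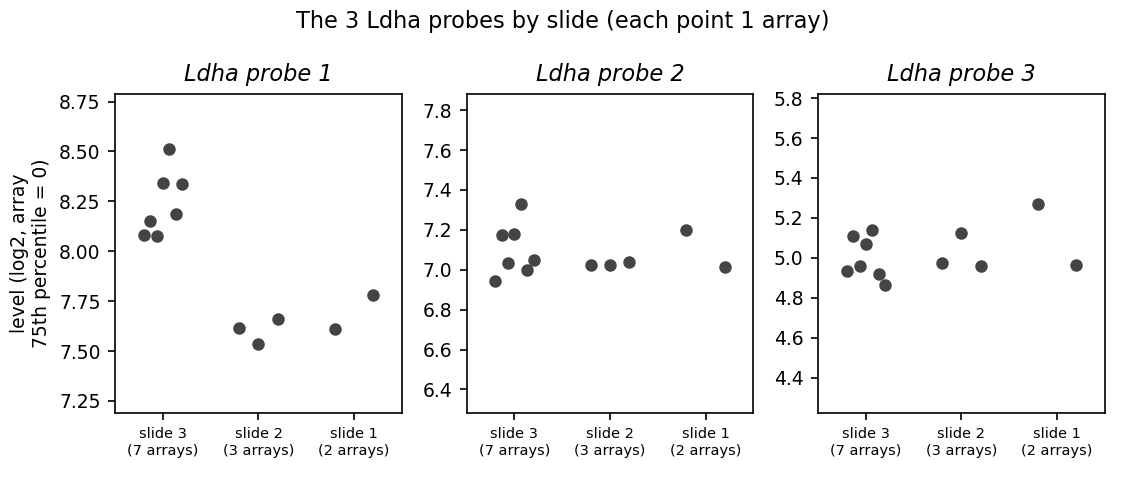
Each panel is 1 of the 3 Ldha probes, and each point its level on 1 array in log2 units, by slide. The brightest probe lies at 8.07 to 8.51 on the slide with 7 arrays and at 7.53 to 7.78 on the others, and the other probes overlap.

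Further genes of these pathways were read from lists. Of 42 further glycolysis and pyruvate genes 39 were tested, and of 51 further HIF and hypoxia genes 43, and none passed in the 5 comparisons in the fit of 4 group means. Fbp1, which runs a glycolytic step backwards to make glucose, had a calcitriol difference in wild type of 2.30 (adjusted p = 0.833 in the fit of 4 group means and 0.00192 with the replicate block). Fbp1 differed between knockout and wild type in calcitriol by -1.92 (adjusted p = 1 in the fit of 4 group means and 0.0195 with the replicate block), and its effects differed by -2.10 (adjusted p = 1 in the fit of 4 group means and 0.0341 with the replicate block). In knockout organoids the smallest p-values with calcitriol were those of the lactate carrier Slc16a1 at 1.01, Pgam2 at 0.79, Myc at -1.44 and Loxl2 at 0.52, none of which passed. In wild type they were Nos2 at -0.76 and Cited2 at -0.25 among hypoxia genes, which did not pass. For knockout against wild type in vehicle they were Slc16a1 at -0.79, Eno3 at -0.40, Loxl2 at -0.45 and Ddit4 at 0.38, and in calcitriol they included Nos2 at 0.73 and Cited2 at 0.43. For the difference of effects they included Slc16a1 at 0.87, Nos2 at 0.85 and Loxl2 at 0.56, none past the threshold.

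Between replicates 1 and 2, 11 of the 39 glycolysis and pyruvate genes were higher in replicate 1 and 0 lower, against 6.23% and 6.46% of all genes, while 21 of the 39 were above 0, with a median of 0.097. Among them were Pcx (1.18), Aldoc (1.15), Bsg (1.06), Pdk2 (1.12), Pfkm (0.87), Gbe1 (1.20), Pgm1 (0.75), Ldhb (1.36), Fbp1 (1.66) and Gys1 (0.43). Pcx feeds pyruvate into the citric acid cycle, Bsg escorts lactate carriers to the membrane, and Gbe1 and Gys1 build glycogen. Of the 43 hypoxia genes 11 were higher and 5 lower, against 6.23% and 6.46% of all genes, and 28 were above 0, with a median of 0.15. The higher included Hif3a (2.10), Gpr146 (1.94), Plod2 (1.78), Selenbp1 (1.12), Ak4 (1.097), Kdm4c (0.81), Kdm4b (0.70), Fam162a (0.69), Vldlr (0.55) and Ankzf1 (0.44). Hif3a encodes a further HIF alpha subunit and Plod2 a lysyl hydroxylase of collagen. The lower were Edn1 (-1.53), Mt2 (-1.44), Angptl4 (-1.28), Tfrc (-0.55) and Mt1 (-0.51), which include both metallothioneins and the transferrin receptor. Promoters with either core made up 70.6% of 17 in the 13 genes that differed between replicates 1 and 2, and 79.3% of 29 in the other 19 genes. The 19 include Mxi1, which was not tested.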

How the data were processed

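RNA (100 ng) was labelled with Cy3 and hybridised to Agilent mouse arrays of 1 colour. The deposited intensity values came, per the file headers, from Feature Extraction 11.5.1.1, with a design annotated on mm9. The submitters' processing notes name that program too. From these, log2 of the processed signal minus each array's 75th percentile was taken. Control spots and outlier spots were left out, and 55518 of 55681 probes were complete. The brightest probe stood for a gene, and a gene was kept if well above background on every array of a group (24246 genes, 14907 with a symbol through RefSeq accessions).

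Groups were compared with limma 3.58.1 in R 4.3.3 (4 group means, 12 arrays, Benjamini-Hochberg over all genes). The procedure was tested on simulated data. The members and lists were chosen with earlier results of these data known, and the comparisons of replicate numbers and of slides were added after the data were seen. Named genes are all called members, the 4 with the smallest p per comparison and 10 chosen genes, and from the lists every called gene or else the 2 with the smallest p; some of the list genes are not reported here. The same mouse gave a calcitriol and a vehicle array, so arrays pair by the labels, and their deviations correlated at 0.10 to 0.59 within mice and at 0.13 to 0.64 between same-numbered mice of both genotypes. The number of arrays limits the precision. Alternatives were the replicate block, slide as a block, the largest slide alone, normexp with offset 50, array median and quantile scaling, no filter, the mean of probes, 6 arrays only, and leaving out arrays or mice.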

Additional observations from a re-analysis of the deposited data

How the results depend on the processing

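In the 5 comparisons of treatment and genotype, 0 of 34 genes were called under every alternative run, among them the replicate block (0 in each), slide as a block, the largest slide, every scaling, and leaving out each array or mouse (0 to 0). The block raised the counts over all genes, from the fit of 4 group means, to 235 against 39 for calcitriol in wild type, 4 against 1 for knockout in vehicle, 249 against 50 for knockout in calcitriol and 58 against 7 for the difference of effects. Between replicates 1 and 2, the 13 genes (12.7% of all genes) became 5 with scaling to the array median, 4 of them among the 13 (4.04%), and 0 on calcitriol arrays alone (0.4%). Leaving out 1 of the mice numbered 1 or 2 gave 0 to 8, at most 6 of them among the 13 (0.932% to 4.93%). The hypoxia median of 0.49 was 0.84 with that scaling, against 0.25 over all genes. It was 0.38 on calcitriol arrays and 0.36 to 0.66 without 1 of the mice numbered 1 or 2. The cause was not tested, except that fewer mice enter the last.

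Scaling to the array median moved the median of all genes to 0.44 for calcitriol in wild type, -0.25 in knockout, 0.70 for knockout in vehicle and -0.69 for the difference of effects, and shifts every gene of a comparison alike, so these signs turn by its construction. It gave Pfkl 0.10, Pkm 0.28 and Epas1 0.33 for calcitriol in wild type, Eno1 -0.11 and Epas1 -0.16 in knockout, Epas1 0.53 and Egln1 0.42 for knockout in vehicle, and Pfkl -0.32, Pkm -0.54, Epas1 -0.49 and Egln1 -0.47 for the difference of effects. The mean of its 3 probes gave Epas1 0.11 for calcitriol in wild type, 0.20 for knockout in vehicle and -0.050 for the difference. On the largest slide, with 1 vehicle array of each genotype, Eno1 was at -0.20 for calcitriol in wild type and -0.027 in knockout. For calcitriol in knockout, leaving out 1 array put Slc2a1 at -0.43 to 0.011, above 0 without vehicle replicate 3, which leaves the calcitriol array of that mouse unpaired (within mice it was -0.13, -0.25 and -0.29), and leaving out 1 mouse put Eno1 at -0.027 to 0.29 in the fit with the replicate block, below 0 without knockout mouse 1. None of these values passed the threshold.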
